A study of Mus musculus with 6 samples.

Results

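The NF-κB subunit genes and the genes of the kinase complex that activates them were examined in corneal epithelium after Rela ablation. The set held the subunit genes Rela, Nfkb1, Nfkb2, Rel and Relb, the IκB kinase genes Chuk, Ikbkb and Ikbkg, the upstream kinase gene Map3k14 and the NF-κB cofactor gene Bcl3. These 10 genes were taken by symbol from the 17866 genes of the table, and all 10 were among the 13305 genes that passed the filter on low counts. Bulk RNA-seq had been performed on the separated epithelium of the cornea of C57BL/6 mice aged 6 months, and of the 6 libraries 3 were labelled WT and 3 Rela-/-. In the study, the mutant animals carried Krt14-Cre and were homozygous for a floxed Rela allele. Rela was thus removed only from cells with a history of Krt14 promoter activity, a promoter that marks basal epithelial cells. Cells without such a history keep the gene, and whether the WT animals carried Cre or the floxed allele was not given in the labels.

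NF-κB is a family of dimeric transcription factors that rest in the cytoplasm bound to inhibitors of the IκB family. In the canonical arm, the IκB kinase (IKK) complex, made of the catalytic subunits Chuk and Ikbkb and the scaffold Ikbkg, marks IκB for degradation and frees dimers of Rela and the Nfkb1 product. In the non-canonical arm, Map3k14 (NIK) acts through Chuk, and the precursor encoded by Nfkb2 is processed to a subunit that pairs with Relb. Bcl3 is a nuclear member of the IκB family that binds dimers of the Nfkb1 and Nfkb2 products.

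NF-κB is known to act on promoters of several of its own genes. Promoter windows of RefSeq on GRCm38.p6, from 250 bases before to 50 bases after a start, were searched on both strands for the κB consensus. Windows were matched for 7 of the 10 genes, with 12 windows in all, and those of Nfkb1, Relb and Ikbkb were not analysed here. A κB match was present in windows of 3 genes, Nfkb2, Rel and Bcl3, and in 5 of the 12 windows, beside 4.51% of all 32851 windows and 5.14% of 27025 genes. Each printed window reads 5′ to 3′ on the strand of its gene, and capitals mark the bases of κB matches. The windows are shown because they belong to Nfkb2 and Bcl3, the called genes besides Rela and Chuk, and to Rel, the other gene with a match.
Nfkb2, chr19:46304487-46304786, plus strand: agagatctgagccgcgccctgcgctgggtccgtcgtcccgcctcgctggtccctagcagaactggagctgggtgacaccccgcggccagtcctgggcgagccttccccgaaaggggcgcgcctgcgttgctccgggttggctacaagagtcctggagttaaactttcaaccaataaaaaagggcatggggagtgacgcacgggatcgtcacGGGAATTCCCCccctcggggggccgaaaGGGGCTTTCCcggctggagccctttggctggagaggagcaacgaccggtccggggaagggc
Bcl3, chr7:19822706-19823005, minus strand: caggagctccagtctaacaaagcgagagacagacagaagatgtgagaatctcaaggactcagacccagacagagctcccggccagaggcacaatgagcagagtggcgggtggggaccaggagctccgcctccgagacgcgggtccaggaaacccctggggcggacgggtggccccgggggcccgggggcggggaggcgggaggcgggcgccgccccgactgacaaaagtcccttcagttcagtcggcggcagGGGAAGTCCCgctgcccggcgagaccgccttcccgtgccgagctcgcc
Rel, chr11:23770920-23771219, minus strand: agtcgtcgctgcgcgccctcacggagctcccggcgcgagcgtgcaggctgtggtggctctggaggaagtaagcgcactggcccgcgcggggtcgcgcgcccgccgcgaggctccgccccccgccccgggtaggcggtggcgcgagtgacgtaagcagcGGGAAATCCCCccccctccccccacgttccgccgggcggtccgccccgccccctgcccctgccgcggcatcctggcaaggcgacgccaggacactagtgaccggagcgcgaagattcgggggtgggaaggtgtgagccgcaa
In the Nfkb2 window, the first run of capitals is 11 bases long because matches on the 2 strands overlapped there, and it began 39 bases before the start, with the second run beginning 11 bases before it. Counting by position, Nfkb2 had 4 distinct sites over its 3 windows, of which 1 lay in 2 overlapping windows. The Rel run was likewise 11 bases of overlapping matches and began 92 bases before the start, whereas the 10-base Bcl3 match began 2 bases after the first transcribed base. A match is a string of letters, and binding was not measured in these libraries.

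Library totals ranged from 20158404 to 20880347 estimated counts. The genotypes differed at an adjusted p under 0.05 for 8253 of 13305 genes (edgeR's quasi-likelihood test with Benjamini-Hochberg adjustment), or 62.0% of those tested. Levels are given in CPM, counts scaled to a library total of 1000000 with TMM factors. The corneal marker list (Krt12, Krt5, Pax6 and 6 others) summed to 96669 to 100706 CPM in WT and 33610 to 37925 CPM in Rela-/-. Of its 9 markers, 7 were called lower, Krt15 was not called and 1, Krt14, was called higher. The mean of Krt14 rose from 579 ± 523 to 10251 ± 946 CPM (SD, n = 3 per group), and this rise is included in the mutant sum. The epidermal list rose from 15.1 to 20.1 CPM in WT to 10145 to 22708 CPM in Rela-/-, and its 4 tested markers were all called higher. Of 11 tested leukocyte markers 9 were called higher, Itgam was called lower and Cd68 was not called. The summed leukocyte level overlapped (272 to 351 CPM in WT, 300.4 to 385 CPM in Rela-/-) and was mostly Itgam and Cd68. With these set aside after the values had been seen, the other 13 markers summed to 6.67 to 15.3 CPM in WT and 90.6 to 146 CPM in Rela-/-. The stromal list had 5 of 6 tested markers called higher and 1, Pdgfra, called lower. Its sum, in WT mostly Pdgfra, went from 14.9 to 18.2 CPM to 26.9 to 40.2 CPM. The vessel list, with 1 tested marker called higher, went from 0.0458 to 0.237 CPM to 0.81 to 0.897 CPM. The leukocyte marker Cd79a, the stromal marker Lum, the vessel marker Kdr and the epidermal marker Krt2 were at 0 in every WT library, and none of the listed markers measured was at 0 in all 6 libraries. In bulk libraries fewer cells of a type and less RNA per cell cannot be told apart, and the part of these shifts in the values given next was not tested.

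Of the 10 genes, 4 were called at an adjusted p under 0.05, a share of 40% against 62.0% of all genes tested. Rela, Nfkb2 and Chuk were lower in Rela-/- epithelium, beside 30.2% of all genes called lower. Bcl3 was higher, beside 31.8% of all genes called higher. Among the 10 genes, only Rela passed the stricter threshold of the study, at which the adjusted p is at most 0.001 and the change at least 2-fold, which 19.8% of all genes passed. Without the targeted gene, 3 of 9 were called, and the median size of their log2 fold change was 0.37 against 0.53 for all genes tested. Library values in CPM did not overlap between genotypes for 7 of the 10 genes (6 lower, 1 higher), or 70%, and the same held for 68.7% of all genes.

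**Figure D1:**
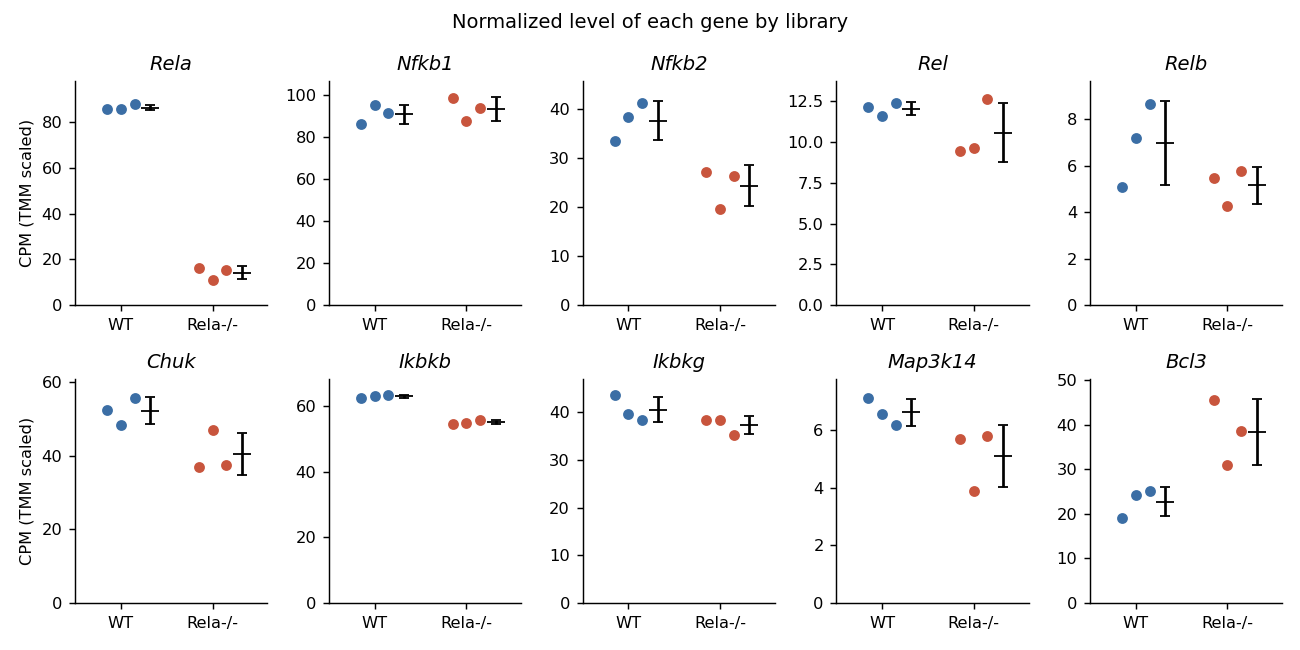
Level of each of the 10 genes in CPM (TMM scaled, linear axis from 0) in the 3 WT (blue) and 3 Rela-/- (red) libraries, with the mean and SD of each group as a black bar. Rela fell from about 86.4 to 14.3 CPM, Bcl3 rose from 22.7 to 38.4 CPM, and the Nfkb1 values of the genotypes overlapped.

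Rela (gene 19697, GRCm38 chromosome 19, 5635891 to 5649631) encodes the main transactivating subunit and was the targeted gene. Its level was 85.7, 85.8 and 87.8 CPM in the WT libraries and 16.1, 11.2 and 15.6 CPM in the Rela-/- libraries. Each mutant library was far below each WT library, and the spread among mutants was wider (coefficient of variation 18.9% against 1.39%). The fitted log2 fold change was -2.60 ± 0.14 (SE, n = 3 per group; edgeR adjusted p = 2.74e-06), which left 16.5% of the WT level. The counts cover the whole gene and not the deleted exons alone, so this value does not give the share of cells that kept the allele. The effective transcript length implied by the deposited counts and FPKM also separated the groups, at 2510 to 2514 bases in WT and 2414 to 2426 bases in Rela-/-, or 3.59% shorter. A non-overlapping length difference at least this large occurred in 5.30% of 10072 tested genes with an FPKM of 1 or more in every library, and its source was not tested.

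Nfkb1 (gene 18033, chromosome 3, 135584655 to 135691982) encodes the usual partner of Rela and an inhibitory precursor. Its level was 85.9, 95 and 91.3 CPM in WT and 98.6, 87.4 and 93.9 CPM in Rela-/-. The groups overlapped, with a WT library lowest and a Rela-/- library highest. The log2 fold change of 0.04 ± 0.09 (SE, n = 3 per group) did not pass edgeR's test (adjusted p = 0.709), and its 95% interval ran from a ratio of 0.896 to 1.18. Its sign was not stable, being -0.06 with library totals alone as the scaling.

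Nfkb2 (gene 18034, chromosome 19, 46303585 to 46319534) encodes the precursor of the non-canonical arm. It had 33.4, 38.4 and 41.3 CPM in WT and 27.2, 19.7 and 26.4 CPM in Rela-/-. All mutant values lay below all WT values. The gene fell by 0.63 ± 0.14 on the log2 scale (SE, n = 3 per group; edgeR adjusted p = 0.00539), to 64.7% of the WT CPM, and passed the threshold in all 17 alternative fits. In GENCODE M21, 531 exon bases (11.6%) of Nfkb2 overlap the lncRNA AC114539.1 and 299 bases (6.52%) overlap Psd, both on the other strand. Psd, which had only 31 to 60 counts per library, had a log2 fold change of -0.23 (edgeR adjusted p = 0.46), and AC114539.1 was not analysed here. Whether counting used strand is not given in the sources used here.

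Rel and Relb encode the other transactivating subunits, Rel being best known in lymphoid cells and Relb as the partner of processed Nfkb2. Rel (gene 19696, chromosome 11, 23733350 to 23770970) had 12.1, 11.6 and 12.4 CPM in WT and 9.47, 9.63 and 12.7 CPM in Rela-/-. The third mutant library was the highest of all 6, so the groups overlapped. The log2 difference of Rel was -0.19 with a 95% interval from -0.52 to 0.14 (edgeR adjusted p = 0.283). Relb (gene 19698, chromosome 7, 19606217 to 19629438) had 5.08, 7.18 and 8.67 CPM in WT and 5.47, 4.26 and 5.76 CPM in Rela-/-. The first WT library lay within the mutant range. The log2 difference of Relb was -0.43 with a 95% interval from -0.95 to 0.09 (edgeR adjusted p = 0.129), and with a library left out it ranged from -0.61 without WT replicate 1 (adjusted p = 0.0373) to -0.23 without WT replicate 3 (adjusted p = 0.421).

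Levels were next compared among the 5 subunit genes on the FPKM scale, which divides by effective length. In WT, Rela was the most abundant at 35.5 ± 0.35 FPKM (SD, n = 3), followed by Nfkb1 at 23.8 ± 1.05, Nfkb2 at 12.2 ± 1.07, Rel at 4.80 ± 0.15 and Relb at 3.21 ± 0.76 FPKM, with no overlap between neighbours in this order. In Rela-/-, Nfkb1 was the most abundant at 22.9 ± 0.89 FPKM, and Nfkb2 at 7.33 ± 1.06 and Rela at 5.70 ± 0.99 FPKM overlapped. Rela made up 46.5%, 43.8% and 43.9% of the summed subunit FPKM in the WT libraries and 14.4%, 11.9% and 14.0% in the Rela-/- libraries. Nfkb1 made up 29.8%, 31.04% and 29.0% in WT and 53.9%, 57.5% and 52.0% in Rela-/-. The Nfkb1 share was thus higher in every mutant library while its own level was not called. The summed FPKM of the 5 genes, which includes the targeted Rela, went from 77.3 to 80.7 in WT to 38.2 to 44.2 in Rela-/-. A fall of Rela by itself raises the shares of the other genes in this sum.

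**Figure D2:**
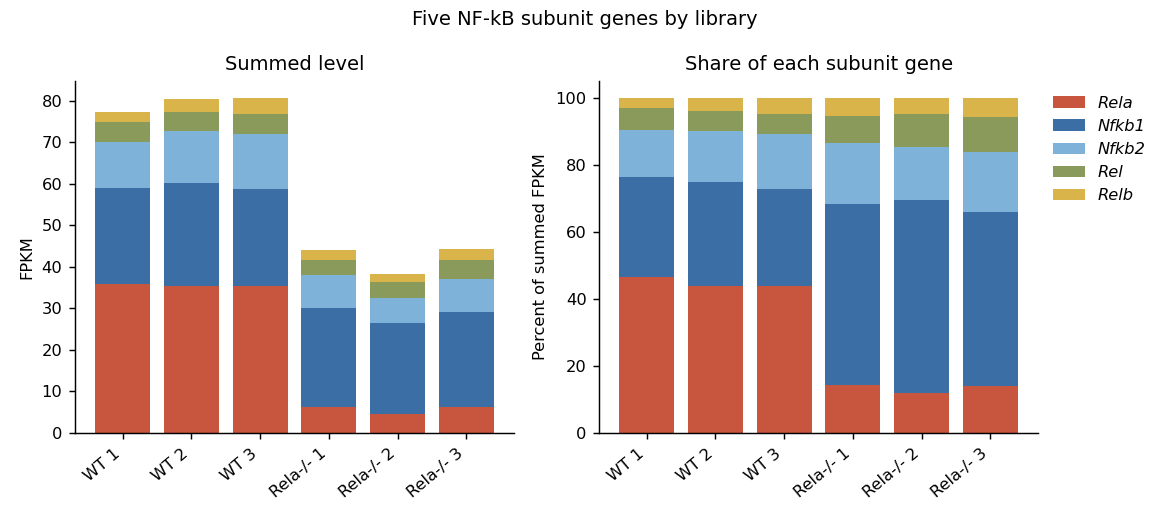
Stacked FPKM of the 5 subunit genes (left) and each gene's percent of their sum (right) in every library. Nfkb1 was 29.0% to 31.04% of the sum in WT and 52.0% to 57.5% in Rela-/-, and Rela went from 43.8% to 46.5% to 11.9% to 14.4%.

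The summed FPKM of the 4 subunit genes that were not targeted was 41.4, 45.3 and 45.3 in WT and 37.6, 33.6 and 38.1 in Rela-/-. No mutant library reached the lowest WT library. The log2 difference was -0.27 (two-sided exact permutation test, p = 0.1, the smallest that 3 against 3 libraries allow), and with summed CPM in place of FPKM it was -0.15 (exact permutation p = 0.3). FPKM is scaled by library total without TMM factors, and with library totals as the scaling the median log2 fold change of all genes was -0.09. The Nfkb2 to Nfkb1 ratio of FPKM was 0.479, 0.494 and 0.561 in WT and 0.339, 0.278 and 0.341 in Rela-/-. This ratio was lower in every mutant library, with a log2 difference of -0.68 (exact permutation p = 0.1, again the smallest possible).

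The fitted changes of the IKK complex genes were smaller than those of Nfkb2 and Bcl3, although the difference between genes was not tested. Chuk (gene 12675, chromosome 19, 44073334 to 44107509), encoding the catalytic subunit that serves both arms, had 52.3, 48.4 and 55.8 CPM in WT and 36.9, 47.1 and 37.4 CPM in Rela-/-. The second mutant library came close to the lowest WT library without reaching it. Chuk fell by 0.37 ± 0.12 on the log2 scale (SE, n = 3 per group; edgeR adjusted p = 0.0256). This call was lost without WT replicate 1 or 3 (adjusted p = 0.0733 and 0.1002), without Rela-/- replicate 1 or 3 (0.0721 and 0.0890) and with a correction for gene length (-0.24, adjusted p = 0.126). Its estimated counts were not whole numbers, and the implied effective length of Chuk varied by 10.3% over the 6 libraries.

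Ikbkb (gene 16150, chromosome 8, 22659205 to 22706591) encodes the catalytic subunit that phosphorylates IκB in the canonical arm. Its level was 62.5, 63.0 and 63.4 CPM in WT and 54.5, 54.9 and 55.8 CPM in Rela-/-. These were the tightest values of the 10 genes, and the groups were well apart. The log2 fold change of -0.19 ± 0.08 (SE, n = 3 per group) just missed the threshold (edgeR adjusted p = 0.0545; 95% interval -0.37 to -0.02). It passed with library totals as the scaling (-0.29, adjusted p = 0.0132), in limma on log2(FPKM + 1) (adjusted p = 0.0190) and log2(FPKM + 0.1) (0.0191), and without a filter on low counts (edgeR, 0.0496). The length correction took it to -0.07 (edgeR adjusted p = 0.449), and it missed the threshold with any one library left out (0.0733 to 0.159).

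Ikbkg (gene 16151, chromosome X, 74393291 to 74456792), the regulatory scaffold NEMO, had 43.5, 39.6 and 38.4 CPM in WT and 38.3, 38.4 and 35.2 CPM in Rela-/-. The lowest WT and highest mutant libraries were nearly equal. The log2 difference was -0.12 with a 95% interval from -0.33 to 0.09 (edgeR adjusted p = 0.285), and it was 0.13 after the length correction. Ikbkg shares 418 exon bases (5.15%) with G6pdx on the other strand, which had 7040 to 9744 counts per library and a log2 fold change of 0.27 (edgeR adjusted p = 0.105). The Chuk to Ikbkb ratio of FPKM, the balance of the catalytic subunits, was 0.730, 0.734 and 0.808 in WT and 0.626, 0.775 and 0.633 in Rela-/-. The ratios overlapped through the second mutant library, and the log2 difference was -0.17 (two-sided exact permutation p = 0.3, where the smallest possible is 0.1).

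**Figure D3:**
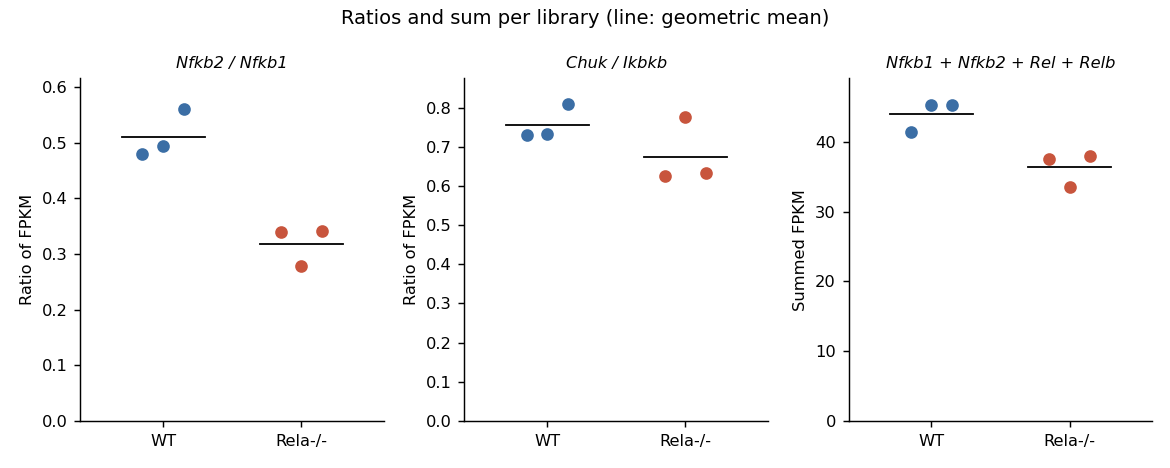
Ratio of Nfkb2 to Nfkb1 FPKM, ratio of Chuk to Ikbkb FPKM and summed FPKM of Nfkb1, Nfkb2, Rel and Relb in each library (points; linear axes from 0), with the geometric mean of each genotype as a line. The Nfkb2 to Nfkb1 ratio was 0.479 to 0.561 in WT and 0.278 to 0.341 in Rela-/-, whereas the Chuk to Ikbkb ratios overlapped.

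Map3k14 (gene 53859, chromosome 11, 103219764 to 103270756), the inducing kinase of the non-canonical arm, was the least abundant of the set at 1.62 FPKM in WT and 1.17 FPKM in Rela-/-. It had 7.10, 6.56 and 6.16 CPM in WT and 5.67, 3.86 and 5.78 CPM in Rela-/-. The mutant values lay below the WT values, with the second mutant library lowest. The log2 difference of -0.37 had a 95% interval from -0.81 to 0.07 and was not called (edgeR adjusted p = 0.122), although limma on log2(FPKM + 1) called it (adjusted p = 0.0465). Map3k14 shares 135 exon bases with 1700028N14Rik on the same strand.

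Bcl3 (gene 12051, chromosome 7, 19808462 to 19822767) was the only gene of the set called higher. It had 19.01, 24.2 and 25.05 CPM in WT and 45.5, 30.9 and 38.7 CPM in Rela-/-. Every mutant library was above every WT library. The log2 fold change was 0.75 ± 0.16 (SE, n = 3 per group; edgeR adjusted p = 0.00406), and it passed in all 17 alternative fits with values from 0.61 to 0.89. On the FPKM scale Bcl3 ranked 5 of the 10 genes in WT at 12.8 ± 1.62 FPKM (SD, n = 3), where its values overlapped those of Chuk and Nfkb2, and 2 in Rela-/- at 20.2 ± 3.50 FPKM, where they overlapped those of Nfkb1. Bcl3 shares 161 exon bases (6.51%) with the antisense gene Gm16175, which was not analysed here.

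**Figure D4:**
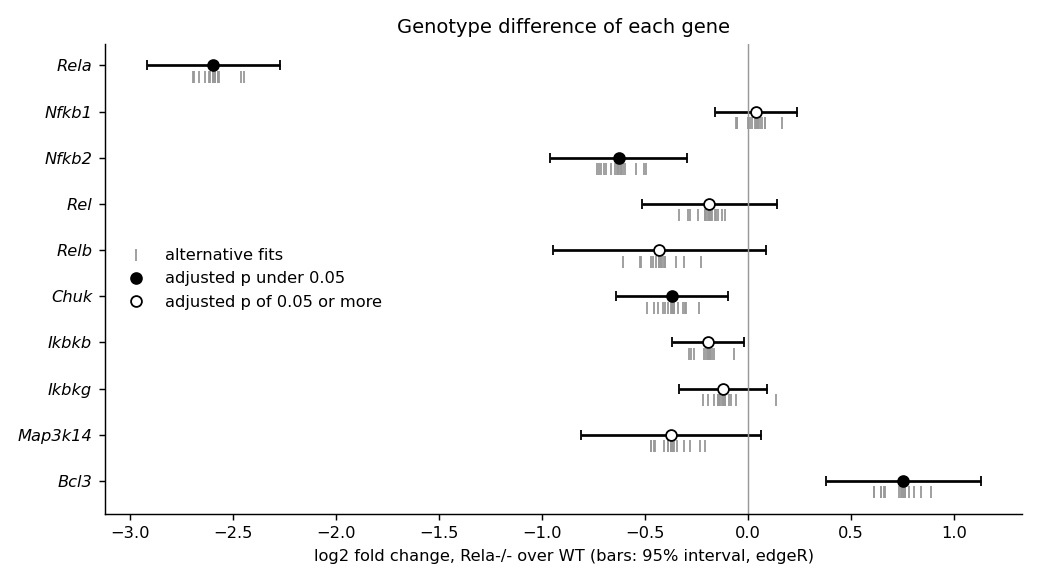
Log2 fold change of each gene, Rela-/- over WT, with its 95% interval from edgeR (filled circles, adjusted p under 0.05) and the values under 17 alternative fits as grey ticks. Rela, Nfkb2 and Chuk lie below 0 and Bcl3 above it, and the ticks of Nfkb1 and Ikbkg fall on both sides of 0.

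Within the mutant group, the second library had the lowest CPM for 6 genes, Rela, Nfkb1, Nfkb2, Relb, Map3k14 and Bcl3, and among all genes tested it was lowest for 34.5%. That library was the highest for Chuk and Ikbkg. In WT the first library was lowest for 6 genes, beside 33.8% of all genes. The 5 genes whose profile over the 6 libraries was nearest to that of Rela, by root mean square distance of centred log2 CPM, were Unc5a (0.0889), Adrb1 (0.113), Pdk2 (0.117), Map3k21 (0.147) and 5730507C01Rik (0.170). Unc5a encodes a netrin receptor, Adrb1 a beta-adrenergic receptor and Pdk2 a pyruvate dehydrogenase kinase. The log2 fold changes of these 5 genes ran from -2.71 to -2.48, beside -2.60 for Rela. Genes with a similar genotype difference lie near one another by this distance, and shared regulation was not tested.

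The other genes of the pathway were examined in 6 lists by role. In all, 29 of 49 tested genes were called (13 higher, 16 lower), or 59.2% against 62.0% of all genes. Their median log2 fold change was 0.03, beside 0.01 over all genes. With a single library left out, between 22 and 25 of the list genes were called, the lowest count being without the third WT library. Of the genes that KEGG annotation in the table assigned to NF-κB signalling, with the 10 genes above left out, 45 of 63 tested were called (22 higher, 23 lower; 71.4%), a list added after the data had been seen.

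Of the IκB inhibitors, 4 of 5 were called, 3 higher and 1 lower, with a median log2 fold change of 0.63, beside 62.0% of all genes called (31.8% higher, 30.2% lower) and a median of 0.01. Nfkbia, which encodes the classical inhibitor, rose from 37.4 to 57.9 CPM (0.63), and the nuclear inhibitor Nfkbid rose by 1.17 on the log2 scale, although from only 14 to 24 counts per WT library to 34 to 42 per mutant library. Nfkbie rose by 0.77, and Nfkbiz fell by 0.40 from 176 to 133 CPM. The Nfkbie call was lost without any one library (adjusted p from 0.0594 to 0.146), and the Nfkbiz call without Rela-/- replicate 1 or 2 or WT replicate 2 (0.0613, 0.0530 and 0.0724). Nfkbie was also lost in DESeq2 (0.142), with library totals (0.0703), without a filter on low counts (0.0715) and with the replicate block (0.0803), and Nfkbiz with the length correction (0.0905).

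Of the deubiquitinases and partners that restrain the pathway, 5 of 6 were called, 1 higher and 4 lower, again beside 62.0% of all genes (31.8% higher, 30.2% lower). Cyld fell by 0.87 on the log2 scale, from 88.8 to 48.7 CPM. Tnfaip3 fell by 0.94 and Tnip1 fell by 0.58, while Otulin, which removes linear ubiquitin, rose by 0.35. The Cyld call held in all 17 alternatives. The Tnfaip3 call was lost without WT replicate 2 or 3 or Rela-/- replicate 1 or 2 (adjusted p = 0.141, 0.0903, 0.0642 and 0.114), with the replicate block (0.0843), with robust dispersion (0.0547) and with the length correction (0.0838), and its library values overlapped. That of Tnip1 was lost without WT replicate 1 or 3 or Rela-/- replicate 3 (0.0595, 0.0770 and 0.0630), and that of Otulin without WT replicate 1 or 3 or Rela-/- replicate 1 or 2 (0.130, 0.0967, 0.126 and 0.0754). Otulin was called in 7 of 17 alternatives, being lost also with the length correction (0.318), library totals (0.120), limma on log2(FPKM + 0.1) and log2(FPKM + 1) (0.118 and 0.121), no filter on low counts (0.0628) and the replicate block (0.0636).

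Of 17 upstream adaptors, ligases and kinases, 9 (52.9%) were called, 2 higher and 7 lower, beside 62.0% of all genes (31.8% higher, 30.2% lower). The ubiquitin ligase Traf6 rose by 0.76 and the Toll-like receptor adaptor Myd88 by 0.64. The linear ubiquitin ligase gene Rnf31 fell by 0.96, its partner Sharpin fell by 0.51 and the kinase partner Tab1 fell by 0.46. These 5 calls held in all 17 alternative fits. Of the ligands and receptors of the non-canonical arm, 3 of 6 tested were called, 2 higher and 1 lower, beside the same shares of all genes. Cd40, Tnfrsf13c, Lta, Tnfsf11 and Tnfsf14, with at most 9 counts in any library, did not pass the filter and were not tested. Lta overlapped in CPM, and the others were higher in every mutant library, Tnfrsf13c narrowly. Among all genes tested, which leave these out, 68.7% did not overlap. The receptor Ltbr fell by 0.38 from 71.5 to 55.0 CPM, the receptor Tnfrsf12a rose by 0.79 from 14.6 to 25.3 CPM, and the ligand Tnfsf13b rose by 1.55 on counts of 2 to 16.25. The Tnfsf13b call was lost without WT replicate 2 (adjusted p = 0.0668) or Rela-/- replicate 3 (0.0815) and in DESeq2 (0.0656). Of the 5 IKK-related kinase genes and partners only Tbkbp1 was called (2.29, from 2 to 7 counts per WT library to 16 to 22), or 20% against 62.0% of all genes.

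Of 10 tested NF-κB target genes, 7 (70%) were called, 4 higher and 3 lower, beside 62.0% of all genes called (31.8% higher, 30.2% lower). Their median log2 fold change was 0.75, beside 0.01 over all genes. Il6, Cxcl1, Cxcl10, Ccl2, Ccl5 and Vcam1 did not pass the filter on low counts and were not tested. Of these, Cxcl1, Cxcl10 and Vcam1 were higher in every mutant library than in every WT library, whereas Il6, Ccl2 and Ccl5 overlapped. Their counts were low, Cxcl1 having 0, 3 and 8 in WT and 10, 9 and 45 in Rela-/-. Cxcl10 had 1, 1 and 0 in WT and 19, 7 and 59 in Rela-/-, and Vcam1 had 1, 0 and 3 and 8, 5 and 7. Among all genes tested, a set that leaves these untested genes out, 68.7% did not overlap. Ptgs2, the inducible cyclooxygenase, rose by 7.62 on the log2 scale, from 3, 7 and 0 counts in WT to 220, 853 and 828 in Rela-/-. With so few WT counts the size of this fold was not stable, being 8.71 without WT replicate 2 and 2.76 in limma on log2(FPKM + 1). The cytokine Il1b rose by 4.99 and the adhesion molecule Icam1 by 3.76, from 8, 3 and 5 and from 9, 16 and 24 counts in WT. The cytokine Tnf fell by 1.47 from 5.02 to 1.81 CPM, the interferon regulator Irf1 fell by 0.98 from 259.6 to 132 CPM and the survival gene Bcl2l1 fell by 0.34 from 128 to 101 CPM. The library values of Tnf overlapped. The Tnf call was lost without WT replicate 3 (adjusted p = 0.0615) or Rela-/- replicate 1 or 2 (0.0515 and 0.0549), and that of Bcl2l1 without WT replicate 3 (0.0654). Of 11 tested leukocyte markers, 9 were called higher and Itgam was called lower. In the mutant libraries, the 13 leukocyte markers other than Itgam and Cd68 summed to 135, 90.6 and 146 CPM. The highest mutant means among them were those of Cd74 and H2-Aa (64.3 and 30.4 CPM). Single markers differed in their order over these libraries, Cd74 having 1538, 813 and 1487 counts and Lyz2 125.28, 209.71 and 226.93. Over the same libraries, Il1b had 52, 241 and 190 counts and Icam1 had 233, 186 and 203 counts. The part of leukocytes in these values was not tested.

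**Figure D5:**
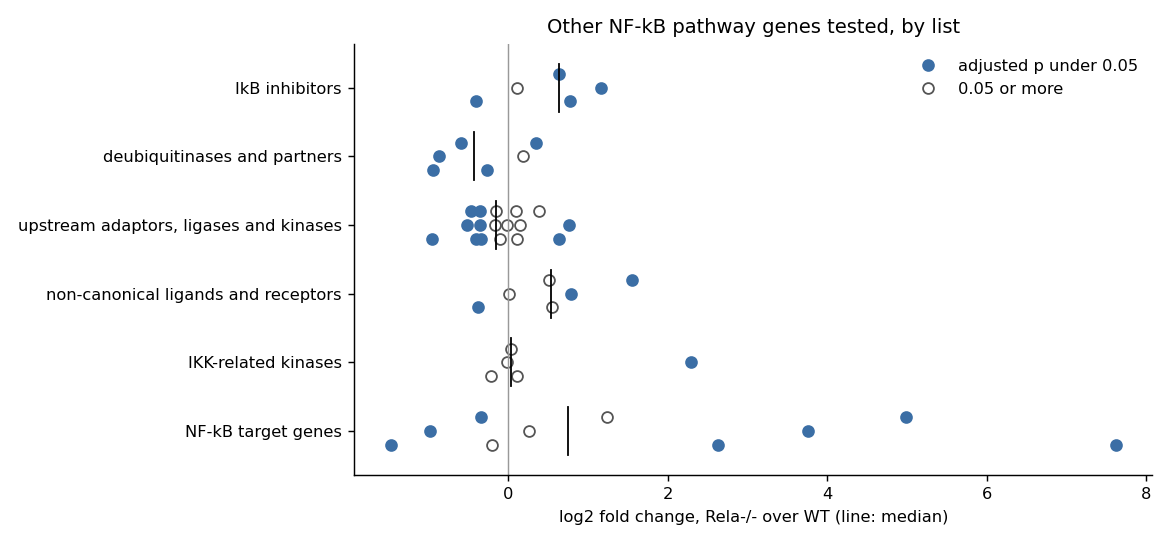
Log2 fold change, Rela-/- over WT, of each tested gene of the 6 pathway lists (points; filled, adjusted p under 0.05), with the median of each list as a line. The IκB inhibitors have a median of 0.63 and the deubiquitinases a median of -0.43, and the target genes range from -1.47 for Tnf to 7.62 for Ptgs2.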

How the data were processed

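Libraries were grouped by the titles and genotype labels. The members and gene lists were chosen with earlier results of these data known. Per the study's methods, the authors depleted ribosomal RNA, filtered reads with SOAPnuke, aligned them with Bowtie2 2.2.5 and estimated gene levels with RSEM 1.2.12. The deposited estimated counts share reads between matching genes, so Relb, Chuk and Ikbkg had values that were not whole. The deposited FPKM values are scaled by effective length and by library total. TPM values were deposited too, sum to 1000000 and served only for that check. The authors' columns of log2 fold changes and adjusted p-values from their own comparison were not used. Coordinates in the table are those of GRCm38, whereas the submitters' processing notes name mm9. The strand in the table differed from GENCODE M21 for 3 of the 10 genes, and that of the annotation was used.

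Genotypes were compared on the rounded estimated counts by edgeR's quasi-likelihood test (edgeR 4.0.16, R 4.3.3, TMM factors, filterByExpr) in a model of genotype alone, and p-values were adjusted over 13305 genes by Benjamini-Hochberg. SE was derived from the fold change and the F statistic, and n = 3 biological samples per genotype, as the study's methods state. Ratios were tested by exact permutation in scipy 1.17.1. Alternatives used DESeq2 1.42.0 and limma 3.58.1, other scalings and filters, robust dispersion, a length correction, the replicate number as a block, and leaving out each library. The rule for names took all 10 genes, the 3 largest called changes in each direction per list, and the 5 profiles nearest to Rela. The motif search, the implied lengths and the leukocyte sum without Itgam and Cd68 were chosen after seeing the data. Tests were tried on simulated data. Depth limits precision through counting error, and PCR copies were not told apart. The list genes Cd40lg, Ccl20, Csf2, Cdh5 and Emcn were not analysed here, and the values of a further listed marker are not reported here.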

Additional observations from a re-analysis of the deposited data

How the results depend on the processing

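Over 17 alternative fits, the 10 genes kept direction and side of the threshold in 154 of 170 cases, and Rela, Nfkb2 and Bcl3 were called in every fit. The direction of Nfkb1 turned with library totals (-0.055), in limma on log2(FPKM + 0.1) (-0.056) and log2(FPKM + 1) (-0.054), and without Rela-/- replicate 1 (-0.00062, the range with a library left out being -0.00062 to 0.084), and that of Ikbkg turned with the length correction (0.134), and the cause was not tested. Calls of the 10 genes numbered 3 to 4 with a library left out and 3 to 6 otherwise. Library totals moved all calls from 4231 higher and 4022 lower to 3709 and 4630, with a median log2 fold change of -0.09. Deviations of same-numbered samples correlated at 0.034, -0.010 and 0.061, and those of differently numbered samples at -0.159 to 0.123. With 3 libraries per genotype, these values cannot show whether samples were paired by number. With the replicate block, 8083 genes were called, including Rela, Nfkb2, Chuk and Bcl3 (adjusted p = 0.0415 for Chuk), while Nfkbie, Tnfaip3 and Otulin lost their calls. The smallest exact p for ratios was 0.1, and depth limits genes of few counts, such as Nfkbie and Tnfsf13b.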
